A study of Mus musculus with 37 samples.

Results

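The 9 arrays of wild-type (WT) mouse cortex, out of 37 in the series, were used to ask how far each gene differed between animals of 1 genotype. Members were taken by their titles as WT replicates 1 to 9, each array holding biotin-labelled RNA from the cortex of 1 mouse at 9 wk of age. The other arrays, used only for comparison, came from 9 Hdac4HET, 9 R6/2 and 10 Dble::R6/2 mice of the same age. R6/2 mice carry a transgene for exon 1 of mutant human huntingtin, Hdac4HET mice have 1 null copy of Hdac4, which encodes a class IIa histone deacetylase, Dble::R6/2 mice carry both, and WT mice carry neither. All mice had the strain label CBA X C57Bl/6. R6/2 males were crossed to Hdac4HET females, and both colonies were kept by backcrossing to F1 females of CBA and C57BL/6. The Hdac4 null allele was made on another strain background. Mice of 1 genotype can therefore hold different combinations of alleles from the parental strains, and no genotype at any locus was measured here. Mice were kept on a 12-h light/dark cycle, and the time of day at dissection was not given in the sources used here.

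Gene expression in the cortex is not a single value for a genotype. Immediate early genes are switched on within minutes by neuronal firing through factors such as CREB and SRF, and their messages fade again within hours. Clock genes cycle over the day, the edge of a dissection decides how much of a neighbouring region is included, and alleles that differ between inbred strains change the level of single genes or the match of a message to an array probe. All of these can make animals of the same genotype differ.

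Values are the deposited log2 levels, on which a difference of 1 is a 2-fold change, and each gene is given by its probe set with the highest WT mean. Of 18193 genes, 11397 lay above the median level of all probe sets, 6.19, and these were described. The standard deviation (SD) over the 9 arrays had a median of 0.0964, which is a change of 6.91%, and 90% of genes are bounded by the 5th and 95th percentiles of 0.0461 and 0.226. An SD above that of a 1.3-fold step, 0.379, was seen for 133 genes, 1.17% of those described. Hpgd at 0.3794 was just inside this threshold and Gm9866 at 0.3780 just outside. With 9 arrays the 95% interval of an SD runs from 0.675 to 1.92 times its value, so genes of nearby SD cannot be ranked. Of the 133 genes, 71 stayed over the threshold when each array was left out in turn, and 62 fell under it without 1 array, 22 of them without replicate 6.

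The spread was smaller at higher levels. The median SD fell from 0.132 in the 2280 genes of lowest level to 0.0690 in the 2280 of highest level, and genes over the threshold from 52 to 13. The arrays were alike as wholes, with pairwise correlations over all probe sets of 0.993 to 0.996 and medians of 6.18 to 6.21. Replicate 8 deviated most from the median of the WT arrays, by 0.0738 at the median over the genes described, and replicate 2 least, by 0.0479. The 13 measured markers of excitatory layers, such as Slc17a7, the vesicular glutamate transporter of cortical neurons, all lay above the median level, and their mean level was 9.64 to 9.77 on every WT array.

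**Figure D1:**
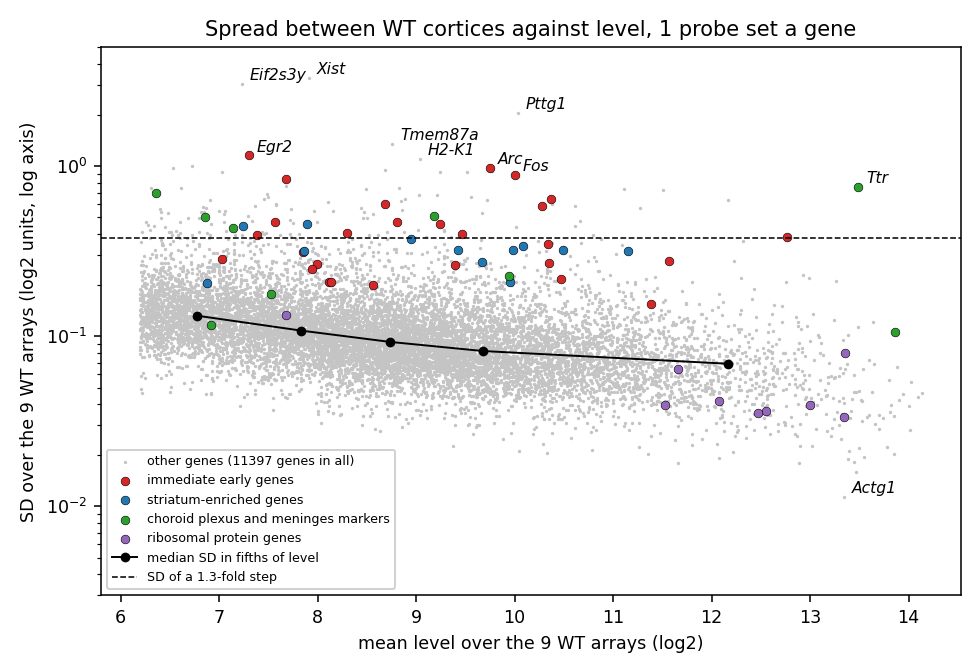
Each point is 1 of the 11397 genes, with its mean level over the 9 WT arrays (log2) on the horizontal axis and its SD (log2 units, log axis) on the vertical axis; colours mark 4 gene lists, black points joined by a line the median SD in bins of rising level, and the dashed line the SD of a 1.3-fold step. Immediate early genes such as Egr2, Arc and Fos lie far above the line of medians, and most ribosomal protein genes lie below it.

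The sex label of 1 WT array went against its genes, which touches the genes of largest spread. The labels give 5 males, replicates 2, 3, 4, 7 and 8, and 4 females, replicates 1, 5, 6 and 9. Xist, the RNA that silences 1 X chromosome in females, was at 12.19 to 12.46 on replicates 1, 5 and 6 and at 5.41 to 5.90 on all others, including replicate 9. Eif2s3y, a Y-linked translation factor gene, was at 3.13 to 3.31 on replicates 1, 5 and 6 and at 8.91 to 9.44 on the rest. Their SDs, 3.32 and 3.03, were the 2 largest. In the whole series 6 arrays went against their sex label in at least 1 of these genes, and on 2 of them, Hdac4HET replicates 5 and 9, both genes were high (Xist at 11.21 and 11.67, Eif2s3y at 8.26 and 7.18). With the labels as given, limma called 0 of 45037 probe sets (0%) between labelled males and females, with 1364 at an unadjusted p under 0.05, and the methods' t-test also called 0, with 1489 at an unadjusted p under 0.05. Without replicate 9, 18 probe sets were called (0.04%), 12 higher and 6 lower in males. Replicate 9 was left out for its levels of Xist and Eif2s3y, which fixed the separation of the sexes in these genes, so their differences of -6.66 and 6.12 are a description. The other called genes with 1 symbol were the Y-linked Kdm5d and Uty, and the X-linked Eif2s3x at -0.52 and Cd99l2 at -0.56. All of these lie on X or Y. Their calls rest on the same choice of arrays, so they are a description too. Eif2s3x, which escapes X inactivation, was the gene most like Xist over the 9 arrays (r = 0.977), and over the other 28 arrays, with genotype means subtracted, their r was 0.973.

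Immediate early genes, the longest list examined, held the highest number of genes of large spread, though not the highest share. Of 31 listed, 27 lay above the median level, 14 of them had an SD over 0.379, and their median SD of 0.382 was 4.06 times that of genes of like level at the median. The promoters of 4 genes of large spread are printed because they carry the elements through which neuronal activity is known to act. They run from 250 bases before to 50 bases after the start of the gene on its own strand, from RefSeq on GRCm38.p6. Capitals mark the cAMP response element TGACGTCA, its 5-base core TGACG, which the full element contains, TATAAA, and the CArG box bound by SRF, each on either strand. Fos lies at chr12:85473640-85473939 (+), Egr2 at chr10:67537619-67537918 (+), Npas4 at chr19:4989922-4990221 (-) and Dusp1 at chr17:26508423-26508722 (-).
Fos: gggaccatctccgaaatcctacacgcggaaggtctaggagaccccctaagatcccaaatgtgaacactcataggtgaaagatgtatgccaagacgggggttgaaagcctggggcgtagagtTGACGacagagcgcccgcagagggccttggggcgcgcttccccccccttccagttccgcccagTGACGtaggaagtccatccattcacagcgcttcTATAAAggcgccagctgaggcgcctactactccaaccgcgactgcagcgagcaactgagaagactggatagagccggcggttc
Egr2: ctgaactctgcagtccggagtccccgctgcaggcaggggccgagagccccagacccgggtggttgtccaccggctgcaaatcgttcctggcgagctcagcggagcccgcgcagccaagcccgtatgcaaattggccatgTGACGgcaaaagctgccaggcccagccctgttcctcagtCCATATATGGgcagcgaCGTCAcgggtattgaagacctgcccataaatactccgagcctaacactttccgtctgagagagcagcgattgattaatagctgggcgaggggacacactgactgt
Npas4: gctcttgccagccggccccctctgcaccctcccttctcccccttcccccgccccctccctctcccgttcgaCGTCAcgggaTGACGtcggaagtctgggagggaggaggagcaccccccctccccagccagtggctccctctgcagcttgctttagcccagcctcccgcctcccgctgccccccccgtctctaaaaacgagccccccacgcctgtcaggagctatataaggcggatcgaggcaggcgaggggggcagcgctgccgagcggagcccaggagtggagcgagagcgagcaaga
Dusp1: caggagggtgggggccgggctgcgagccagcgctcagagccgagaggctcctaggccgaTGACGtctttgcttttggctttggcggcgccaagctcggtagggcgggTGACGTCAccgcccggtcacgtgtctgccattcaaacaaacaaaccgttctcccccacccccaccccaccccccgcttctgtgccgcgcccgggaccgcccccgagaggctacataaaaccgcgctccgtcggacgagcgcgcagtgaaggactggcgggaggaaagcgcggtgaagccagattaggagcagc
Egr2 has 5 start sites in the table, of which 1 is shown.

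Of the 27 immediate early genes, 21 had promoters that could be searched, in 33 windows. TGACG was found in 18 of the 33 windows, for 15 of 21 genes, against 20.8% of all 32851 promoters of the same length. TGACGTCA was found in 2 windows against 1.79% of all, TATAAA in 6 against 13.6%, and the CArG box in 4, all of Egr2, against 1.63%. These are matches of letters in a window, with no test.

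Fos, a subunit of the AP-1 transcription factor and the usual marker of recently active neurons, was at 9.27, 10.25, 8.27, 10.43, 10.64, 10.53, 10.82, 10.67 and 9.12 on replicates 1 to 9. Its SD was 0.892, and the highest array was 5.85-fold above the lowest. Replicates 3, 9 and 1 were low, and the other 6 arrays lay between 10.25 and 10.82. Without replicate 3 the SD was 0.654.

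Egr2, a zinc finger transcription factor, had the largest SD of the list, 1.16, with levels of 6.47, 7.67, 5.54, 7.61, 7.84, 8.47, 8.58, 7.98 and 5.58 on replicates 1 to 9, an 8.22-fold range. The same 3 arrays were lowest, and replicates 6 and 7 were highest. Its second probe set above the median level followed the first with r = 0.997.

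Arc, whose protein acts at synapses in the removal of AMPA receptors, was at 9.33, 10.29, 7.62, 10.33, 10.37, 10.14, 10.35, 10.45 and 8.84. Replicate 3 was the lowest again, and 6 arrays lay between 10.14 and 10.45. Its SD of 0.972 rested on replicate 3 more than that of Fos did and was 0.596 without it.

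Npas4, a transcription factor induced by calcium entry into neurons, was at 6.56, 7.69, 6.04, 8.42, 7.70, 8.38, 8.19, 8.24 and 7.91, with an SD of 0.839. It was low on replicates 3 and 1 but, unlike Fos, Egr2 and Arc, at its median of 7.91 on replicate 9. Nr4a1, an orphan nuclear receptor, ranged from 9.14 to 10.90 (median 10.64, SD 0.640), and Junb, an AP-1 partner of Fos, from 7.50 to 9.22 (median 9.03, SD 0.601). Both were lowest on replicate 3.

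The rest of the list varied less. Dusp1, a phosphatase that switches off MAP kinases, had an SD of 0.586, Egr1 of 0.382 and Per1, which is a clock gene as well as an activity-induced one, of 0.402. Homer1, a scaffold of the postsynaptic density, had the smallest SD, 0.155, followed by Gadd45b at 0.199, Inhba at 0.208 and Nptx2 at 0.210. The mean level over the 27 genes was lowest on replicate 3 (8.54), then on replicates 9 (8.70) and 1 (8.85), and highest on replicate 7 (9.52).

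**Figure D2:**
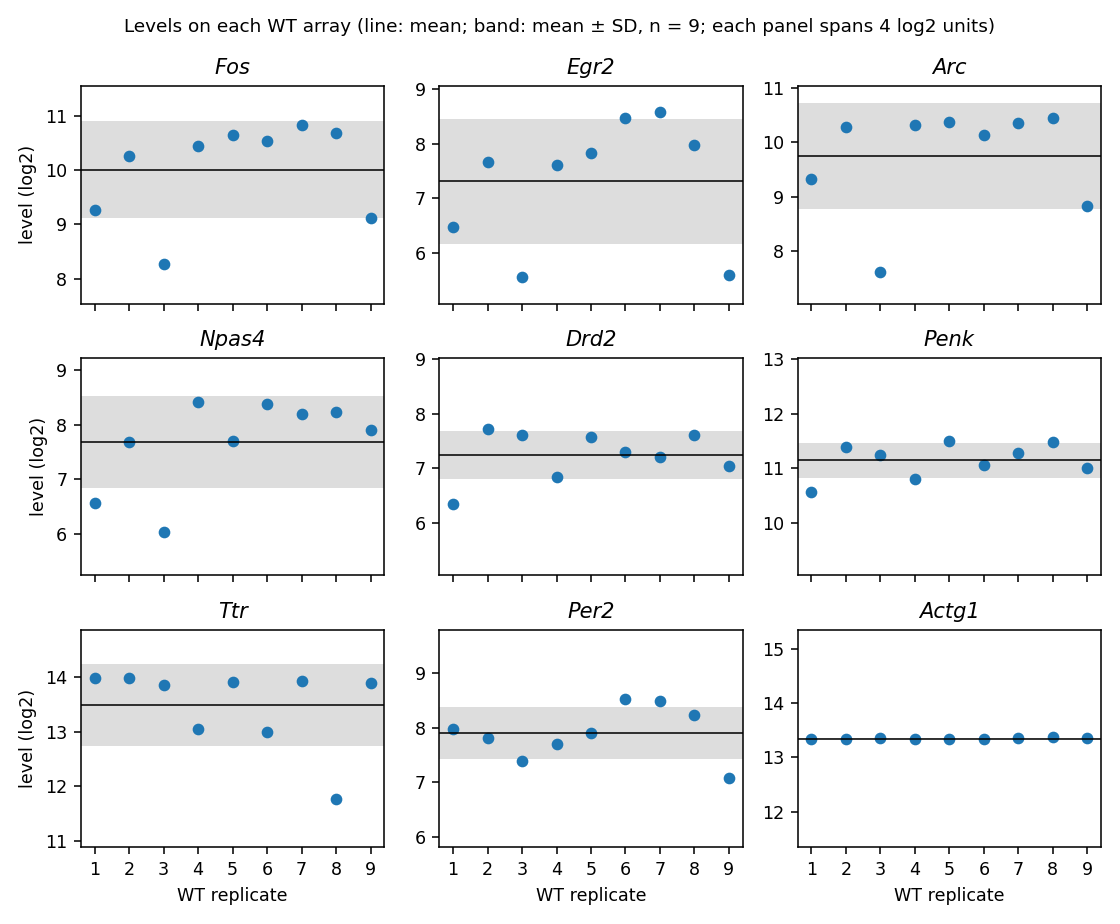
Levels (log2) of 9 genes on WT replicates 1 to 9, 1 point an array, with the mean as a line and the mean ± SD as a grey band (n = 9); the vertical axes of all panels cover the same number of log2 units. Fos, Egr2 and Arc were low on replicates 1, 3 and 9, Drd2 and Penk were lowest on replicate 1, Ttr was lowest on replicate 8, and Actg1 was at 13.33 to 13.37 on every array.

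Members of the list rose and fell together from mouse to mouse. Over the 9 arrays the median correlation between its members was 0.610, against 0.0622 for all pairs of genes described, of which 3.75% had r over 0.7. Gene pairs were listed with earlier results of these data known, so their p-values give no independent support. Of the 24 listed, 21 were measured and 20 had values that allowed an r. A two-sided exact permutation test over the 9 arrays was passed by 10, after Benjamini-Hochberg adjustment over the 20. All of these values are given with r again after the 2 arrays farthest from the median of the first gene were left out. For Fos and Arc r was 0.973 and rho 0.900 (exact permutation p = 0.000441 and 0.00203, adjusted 0.00164 and 0.0101), and r was 0.942 without the 2 arrays. For Fos and Egr2 r was 0.951 and rho 0.933 (exact permutation p = 0.000207 and 0.00075, adjusted 0.00164 and 0.0075), and r stayed at 0.917. For Nr4a1 and Junb r was 0.960 and rho 0.817 (exact permutation p = 0.000386 and 0.0108, adjusted 0.00164 and 0.0308), with 0.948 without the 2 arrays. These pairs kept their relation without those 2 arrays. For Fos, replicate 1 was also low and stayed in, and no r was taken without all of its low arrays.

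Fos and Per1 gave r = 0.934 and rho = 0.983 (exact permutation p = 1.1e-05 and 5e-05, adjusted 0.00022 and 0.000992), falling to 0.756 without the 2 arrays. Fos and Fosb, its close homologue, gave r = 0.887 and rho = 0.850 (exact permutation p = 0.000493 and 0.00607, adjusted 0.00164 and 0.0243), falling to 0.679. Egr2 and Npas4 were not called, with r = 0.712 and rho = 0.567 (exact permutation p = 0.036 and 0.121, adjusted 0.0655 and 0.201), and r was 0.843 without the 2 arrays and 0.931, which would pass, without replicate 9. The genes most like Fos among 11396 were Arc and Nr4a1, both at r = 0.973, then Tnfaip6 (0.965), Tsc22d3 (0.957) and Tada2b (0.956). Over the other 28 arrays, with genotype means subtracted, Fos had an r of 0.924 with Arc, 0.904 with Egr2 and 0.410 with Per1. With Nr4a1 it was 0.915 there, and with Tnfaip6, Tsc22d3 and Tada2b it was -0.26, -0.177 and -0.096. The list as a whole had median correlations of 0.664 within Hdac4HET, 0.522 within R6/2 and 0.534 within Dble::R6/2. The WT SD of Fos, 0.892, stood beside 0.560, 0.567 and 0.618 in those genotypes, that of Egr2, 1.16, beside 1.08, 0.725 and 0.614, and that of Arc, 0.972, beside 0.790, 0.579 and 0.515. The spread test given further on called none of the immediate early genes in any comparison.

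Clock genes varied less than the immediate early genes, apart from Per2. Of 16 listed, 15 lay above the median level, 1 had an SD over 0.379, and the median SD was 0.149. Per2, a repressor within the clock, was at 7.98, 7.81, 7.38, 7.70, 7.90, 8.52, 8.48, 8.23 and 7.09 on replicates 1 to 9 (SD 0.477). Replicates 3 and 9, low for Fos, were lowest for Per2 as well, and replicates 6, 7 and 8 were highest. Arntl, the activator that Per2 represses, ranged only from 8.62 to 8.96 (SD 0.112). The r of Per2 and Arntl was -0.760 and rho -0.667 (exact permutation p = 0.017 and 0.0589, adjusted 0.0339 and 0.118), and r was -0.750 without the 2 farthest arrays. This call was lost with rho and without replicate 3, 4, 5, 7 or 9. Per2 and Dbp, an output gene of the clock, gave r = 0.537 and rho = 0.5 (exact permutation p = 0.132 and 0.178, adjusted 0.22 and 0.273), with 0.936 without the 2 farthest arrays, and would pass without replicate 9, at r = 0.807. The glucocorticoid-induced genes, which respond to stress hormones, had a median SD of 0.152 with none of 12 over the threshold, and Fkbp5 and Sgk1 gave r = 0.251 and rho = 0.250 (exact permutation p = 0.504 and 0.521, adjusted 0.53 and 0.613), with 0.401 without the 2 farthest arrays.

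Genes enriched in the striatum, which lies under the cortex, moved together for the most part. All 12 measured genes lay above the median level, their median SD was 0.322, 4.08 times that of genes of like level, and their median correlation was 0.864, or 0.724 without replicate 1. In bulk tissue, fewer cells of a type and less RNA per cell cannot be told apart. Drd2, the D2 dopamine receptor of striatal projection neurons, was at 6.35, 7.71, 7.60, 6.84, 7.57, 7.30, 7.20, 7.60 and 7.05 on replicates 1 to 9 (SD 0.446). Penk, the enkephalin precursor made by the same neurons, was at 10.56, 11.39, 11.25, 10.80, 11.50, 11.07, 11.27, 11.47 and 11.01 (SD 0.318). Replicate 1 was the lowest for both, and replicate 4 the next lowest.

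Rgs9, a GTPase activator of striatal receptors, ranged from 8.18 to 9.46 (median 8.92, SD 0.374), and Gpr6, an orphan receptor of D2 neurons, from 7.04 to 8.51 (median 7.96, SD 0.455). Over the list the mean level was 8.51 on replicate 1 and 9.47 on replicate 2. Penk and Drd2 gave r = 0.938 and rho = 0.817 (exact permutation p = 0.000444 and 0.0108, adjusted 0.00164 and 0.0308), with 0.774 without the 2 farthest arrays. Drd1 and Drd2, receptors of separate classes of striatal neurons, gave r = 0.901 and rho = 0.767 (exact permutation p = 0.00124 and 0.0214, adjusted 0.00311 and 0.0475), with 0.686 without the 2 arrays, and the call was lost without replicate 1, where r was 0.750. Over the other 28 arrays the r of these pairs was 0.801 and 0.721. The list's median correlation was 0.883 in Hdac4HET, 0.715 in R6/2 and 0.409 in Dble::R6/2.

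Markers of the choroid plexus and meninges were the list with the largest median SD besides the sex-linked genes, 0.435, with 5 of 9 members over the threshold. Ttr, the thyroxine carrier secreted by the choroid plexus, was at 13.99, 13.99, 13.86, 13.05, 13.91, 13.00, 13.93, 11.77 and 13.91 on replicates 1 to 9. Replicates 4 and 6 were lower than the other 6 high arrays, and replicate 8 was lower still. Its SD was 0.756, and 0.421 without replicate 8. Its 3 other probe sets followed it with r of 0.993 to 0.998. The SD of Ttr was 0.824 in Hdac4HET, 0.925 in R6/2 and 1.29 in Dble::R6/2.

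Sostdc1, a secreted BMP antagonist of the choroid plexus, had an SD of 0.693 (5.30 to 7.17, median 6.47), and Dcn, the proteoglycan decorin of the meninges, of 0.512 (8.39 to 9.69, median 9.41). Sostdc1 was lowest on replicates 4 and 8 and Dcn on replicates 4 and 6. The mean level of the list was 8.54 on replicate 4, 8.62 on replicate 8 and 8.67 on replicate 6, and 9.12 to 9.41 on the other arrays. Ptgds, the prostaglandin synthase of meninges and choroid plexus, had an SD of 0.105. The values of Kl lay in separate clusters, so no correlation of Ttr and Kl was taken.

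Other cell types gave smaller spreads, with the oligodendrocyte genes moving together at a median correlation of 0.593, or 0.311 without replicate 2. The median SD was 0.166 for 11 oligodendrocyte genes, 0.162 for 11 microglial genes, 0.137 for 14 interneuron genes, 0.129 for 11 endothelial and 7 precursor genes, 0.114 for 13 excitatory layer genes and 0.0932 for 12 astrocyte genes. Mag, a myelin adhesion protein, was at 10.18 on replicate 2 and at 9.66 to 9.83 elsewhere, and Mog was highest there too, at 9.06. Their r of 0.567, with rho of -0.10 (exact permutation p = 0.146 and 0.81, adjusted 0.225 and 0.81), rested on that array and was -0.532 without it, while over the other 28 arrays it was 0.811. Ifit1 and Ifit3, interferon-induced genes, gave r = 0.934 and rho = 0.917 (exact permutation p = 0.000606 and 0.00131, adjusted 0.00173 and 0.00875), with 0.896 without the 2 farthest arrays, with SDs of 0.302 and 0.204.

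Acta2 and Tagln, of smooth muscle, gave r = 0.715 and rho = 0.778 (exact permutation p = 0.0149 and 0.0182, adjusted 0.0332 and 0.0454), with 0.657 without the 2 farthest arrays, and the call was lost without replicate 3, 4, 7, 8 or 9 and after quantile normalization. The remaining 6 pairs were not called. Their r ranged from -0.0213 for Doc2g and S100a5, markers of the olfactory bulb, to 0.490 for Gfap and Aqp4, of astrocytes, with adjusted exact permutation p of 0.938 and 0.262 and rho of 0.117 and 0.467. Doc2g and S100a5 had an r of 0.975 over the other 28 arrays.

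At the other end were genes that hardly differed between mice. Actg1, cytoplasmic gamma actin, had the smallest SD, 0.0114, with 13.33 on its lowest array and 13.37 on its highest. Gnas, a G protein subunit, had 0.0159, Trim44 0.0179 and Mdh2, the mitochondrial malate dehydrogenase, 0.0181. The next were Prkar1b, Pfn2, Vapa, Rtn1, Tmsb4x and Ppm1b, at 0.0183 to 0.0204. By list, the smallest median SDs were 0.0397 for 9 ribosomal protein genes, 0.0459 for 17 respiratory chain genes and 0.0570 for 8 reference genes. Within the reference genes Actb had an SD of 0.0360 and Gusb, the lysosomal glucuronidase, of 0.122.

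The WT values of some genes lay on 2 sides of a wide gap. A single gap wider than the rest of the range, with 2 or more arrays on both sides, split the WT values of 27 of the 133 genes of large SD (20.3%) and of 239 genes (2.10%) among all described. Apart from Xist and Eif2s3y, the widest split was that of Pttg1, securin, which holds back chromosome separation. Pttg1 was at 7.22 to 7.43 on replicates 2, 4 and 5 and at 11.04 to 11.98 on the other 6, a 16.6-fold difference between the means of the sides. Its SD of 2.05 compared with 0.450 in Hdac4HET, 1.49 in R6/2 and 0.413 in Dble::R6/2, and of the other 28 arrays 3 lay within the gap, with 1, an R6/2 one, below its middle. A second probe set followed the first with r = 0.997.

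Tmem87a, a membrane protein of the Golgi, was at 6.26 and 6.64 on replicates 1 and 7 and at 8.82 to 9.71 on the others, a 7.80-fold difference. Of the other arrays 4 lay within the gap and 3, all R6/2, below its middle. H2-K1, a classical MHC class I heavy chain, was at 7.30 and 6.96 on replicates 6 and 7 and at 9.13 to 9.76 elsewhere, a 5.48-fold difference, with 5 of the other 28 arrays within the gap and 4 below its middle. Tmem181a was high on replicates 1 and 7, at 11.34 and 11.48, and at 9.20 to 9.38 on the other 7, a 4.32-fold difference, with 12 of the other 28 arrays within the gap and 15 above its middle. Each of the 27 genes had at least 1 of the other arrays within the WT gap. The number ran from 1 for Casp9 and Alad to 16 for Hpgd and 17 for Tmem159. It includes values just past an edge, such as Xist at 5.91 on Dble::R6/2 replicate 1, where the gap began at 5.90. The number therefore does not show whether the 2 sides merge in the series. At least 2 of the other arrays lay on both sides of the middle of the gap for 23 of the 27. Further genes among the 20 of largest SD were Gm26782 (1.01), Fam227b (0.975), G530011O06Rik (0.931), Soga3 (0.928), 1500011B03Rik (0.920), 4933439C10Rik (0.767), Casp9, an initiator of apoptosis (0.749), and Myl1, a myosin light chain (0.745). Each of the 20 stayed over the threshold without any single array.

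**Figure D3:**
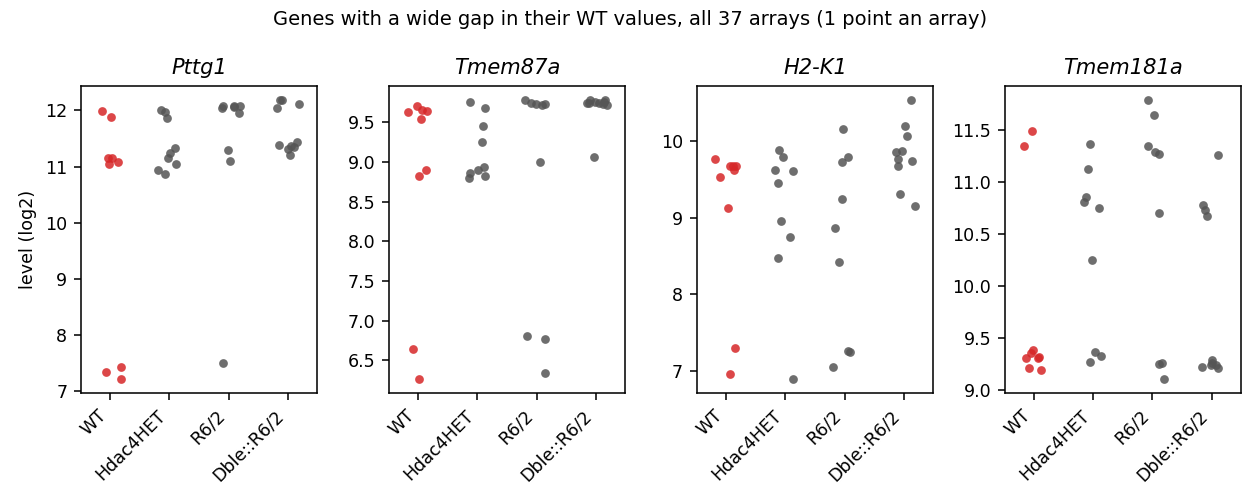
Levels (log2) of Pttg1, Tmem87a, H2-K1 and Tmem181a on all 37 arrays, 1 point an array, by genotype, WT in red. The WT values of each gene fall on 2 sides of a gap, and of the 28 arrays of other genotypes 3 lie within it for Pttg1, 4 for Tmem87a, 5 for H2-K1 and 12 for Tmem181a.

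Genes known to differ between inbred strains held 4 of 8 members over the threshold, with a median SD of 0.386. Besides Pttg1 these were Erdr1 (10.36 to 12.54, SD 0.725), Akr1e1 (7.12 to 8.94, SD 0.619) and Alad, an enzyme of heme synthesis (8.27 to 9.28, SD 0.410). Glo1, glyoxalase, had an SD of 0.361 and was highest on replicate 7, at 10.94, with replicates 1 and 6 next. Their median correlation was 0.008, against 0.610 for the immediate early genes. The amount of a message and its match to a probe cannot be told apart from these values. The probe sets of H2-D1, another class I gene, showed opposite patterns. The brightest had an SD of 0.658 and was lowest on replicates 6, 7 and 1, a second above the median level followed it with r = 0.956, and another, below the median level, ran against it with r = -0.896 and an SD of 2.03. Of 13 other probe sets above the median level for the 20 genes of largest SD, 11 followed the brightest with r over 0.7, and Neat1, a nuclear long noncoding RNA, had 1 at -0.157, with an SD of 0.139 against 0.955. The other exception was a probe set of 1500011B03Rik that ran against the brightest, with r = -0.943 and an SD of 0.388.

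Genes that varied together were sought among the 500 genes of largest SD, down to 0.236 for Tmem178b, with Flywch2 at 0.2362 just outside. Linked at a mean r of 0.7, they gave 15 groups of 10 or more genes, with 225 genes in all. Since the groups were chosen on these arrays, their WT correlations are a description, and the correlations in the other genotypes are independent of the choice. The mean r of all pairs of the 500 genes was 0.0235 in WT, 0.0065 in Hdac4HET, 0.0198 in R6/2 and 0.0164 in Dble::R6/2.

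Of these groups, 3 carried the functional lists described above. A group of 12 genes led by Junb, Fos, Nr4a1, Arc and Per1 held 9 immediate early genes and deviated by -0.986 on replicate 3 and -0.436 on replicate 9. A group of 18 genes led by Bhlhe40, Egr1, Dusp4, Egr2 and Sertad1 held 7 more, with Per2, and was lowest on replicate 9 (-0.578) and highest on replicate 6 (0.468). The mean r of the first was 0.856 in WT, 0.696 in Hdac4HET, 0.351 in R6/2 and 0.226 in Dble::R6/2, and that of the second 0.821, 0.598, 0.412 and 0.452. A group of 23 genes led by Rgs9, Nexn, Gng7, Penk and Drd2, 9 of them from the striatal list, deviated by -0.682 on replicate 1, with a mean r of 0.838 in WT, 0.690 in WT without replicate 1, and 0.426 to 0.612 in the other genotypes. A group of 10 led by Cpne7 and Dcn, with 1 marker of the meninges, was lowest on replicates 4 (-0.598) and 6 (-0.384), with a mean r of 0.575 to 0.802 outside WT.

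In a further pair of groups 1 array lay farthest from the rest. The largest, 33 genes led by Resf1, Arhgap5, Zc3h13, Crebbp and Ildr2 and including Ttr, was 0.667 below its WT mean on replicate 8, and its mean r of 0.827 was 0.440 without that array. Replicate 8 was also the array that deviated most over the genes described, and the part of that in this group was not tested. The same genes had a mean r of 0.464 in Hdac4HET, 0.460 in R6/2 and 0.723 in Dble::R6/2. A group of 22 genes led by Baiap3, Zcchc12, AW551984, Calb2, the interneuron protein calretinin, and Hap1, which binds huntingtin, was lowest on replicate 6 (-0.724) and next on replicate 4 (-0.383), with a mean r of 0.822, 0.652 without replicate 6, and 0.538 to 0.762 in the other genotypes. Calb2 was at 7.72 on replicate 6 and at 8.14 to 8.94 elsewhere.

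Other groups drew many members from 1 chromosome, by gene positions of GRCm38.p6. A group of 17 genes led by Vps52, Ring1, H2-M3 and H2-D1 and including H2-K1 had 10 on chromosome 17, 9 of them within 20 Mb, and was low on replicates 6 (-0.725) and 7 (-0.648). Vps52 starts 0.04 Mb from H2-K1 and was the gene most like it, with r = 0.975 in WT and 0.856 over the other arrays. A group of 13 led by Decr2 and Glo1 had 7 on chromosome 17 and was high on replicates 7 (0.498) and 6 (0.342). A group of 11 led by 2610507I01Rik, with Pttg1, had 7 on chromosome 11 and was low on replicates 4 (-0.790), 5 (-0.676) and 2 (-0.567), the arrays of low Pttg1. A group of 11 led by Tmem87a, Pla2g4e, a phospholipase, and Scg5, a chaperone of prohormone convertase, had 8 on chromosome 2 and was low on replicates 1 (-0.788) and 7 (-0.755), and a group of 12 led by Cfap69 and Dph6 had 7 on chromosome 2 and was high on the same replicates (0.535 and 0.487). Outside WT the mean r of these 5 groups ranged from 0.062 to 0.604. The remaining 4 groups, led by Nek2 (12 genes, lowest on replicate 9), Ighm (11 genes, lowest on replicate 3), Trank1 (10 genes, lowest on replicate 1) and Pdk2 (10 genes, lowest on replicate 2), had a mean r of 0.782 to 0.803 in WT and of -0.029 to 0.343 elsewhere. Their largest numbers on 1 chromosome were 3, 4, 4 and 3 genes, and the 4 of the Trank1 group lay within 20 Mb. The share of all 500 genes on each chromosome was not set beside the counts of any group.

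**Figure D4:**
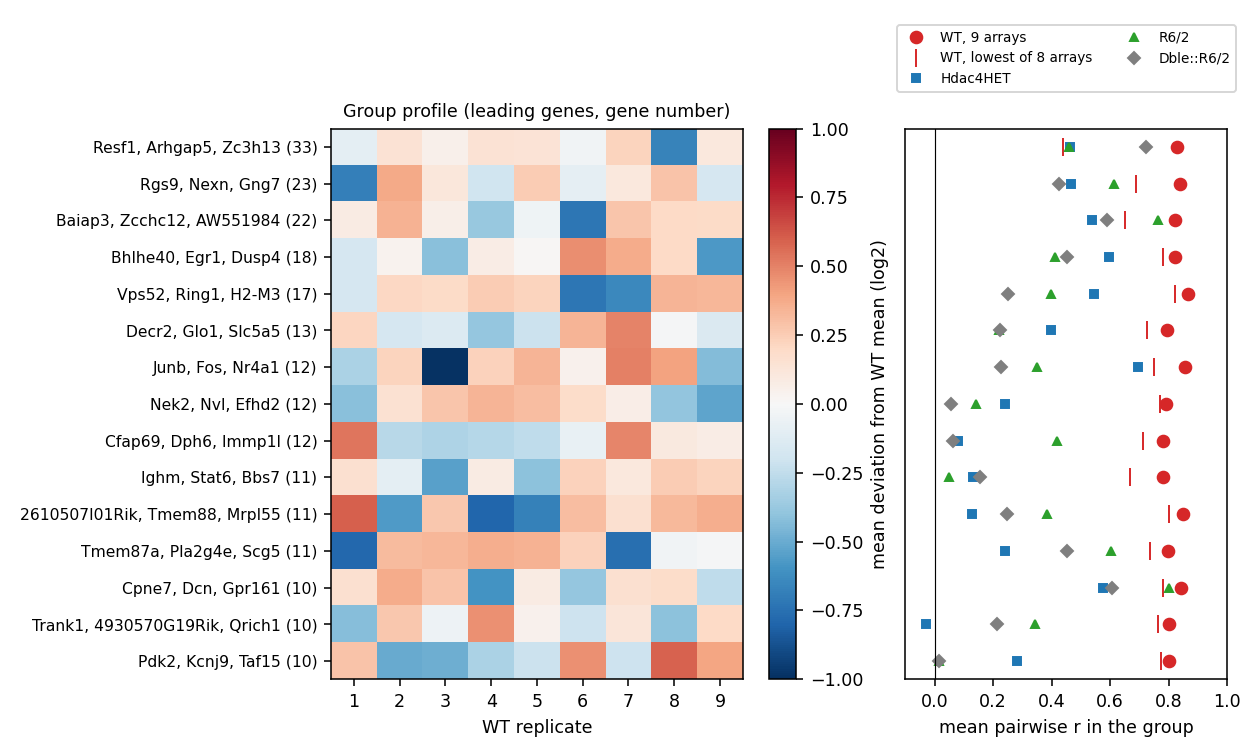
Left, the mean deviation of each of the 15 groups (rows, named by their leading genes with the number of genes) from its WT mean on WT replicates 1 to 9 (log2, colour scale); right, the mean pairwise r within each group in WT, in WT at its lowest with 1 array left out, and in the 3 other genotypes. The group led by Junb is lowest on replicate 3 (-0.986), that led by Rgs9 on replicate 1 (-0.682) and that led by Resf1 on replicate 8 (-0.667).

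Distance between genes was set against the likeness of their WT patterns for the 499 of these genes with a known position. The share of pairs with r above 0.7 or below -0.7 was 53.6% of 168 pairs within 1 Mb, 45.1% of 503 pairs at 1 to 5 Mb, 30.7% at 5 to 10 Mb, 23.5% at 10 to 20 Mb, 10.5% at 20 to 50 Mb and 7.81% beyond, against 6.04% of 117770 pairs on different chromosomes. Over all chromosomes, neighbours thus varied together, or in opposite directions, more often than genes far apart. Within 5 Mb, r above 0.7 was seen for 175 of 671 pairs (26.1%), against 4.18% of all other pairs, and r below -0.7 for 21.2% against 2.20%. Without chromosome 17, where the MHC lies, the share past either limit within 5 Mb was 42.4% of 575 pairs. By chromosome it ranged from 84.8% of 46 pairs on chromosome 14 to 9.09% of 11 on chromosome 6, 8.70% of 23 on chromosome 10 and 5.88% of 34 on chromosome 1, the last no higher than the share between chromosomes. Over the other 28 arrays, with genotype means subtracted, the share was 39.3% within 1 Mb and 1.05% between chromosomes. Pairs share genes and arrays, so no test was made.

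**Figure D5:**
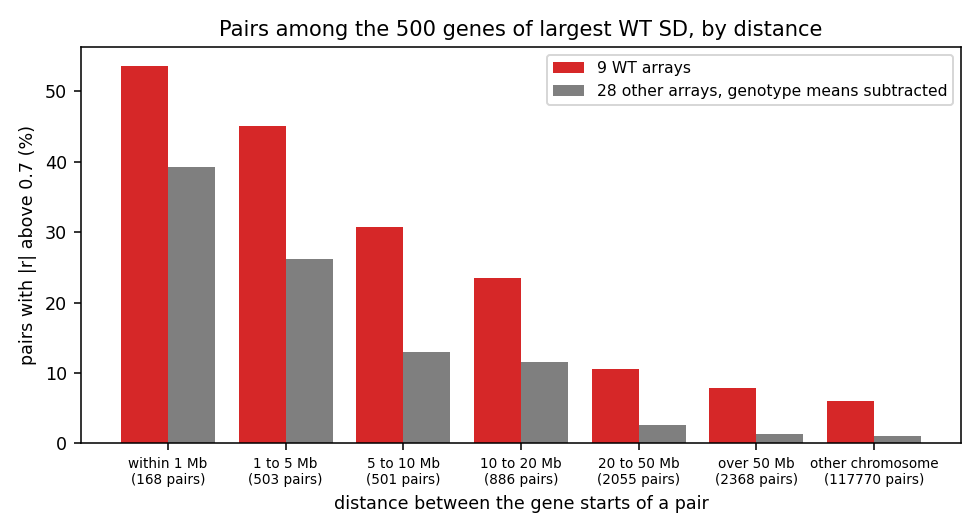
Bars give the share (%) of gene pairs with r above 0.7 or below -0.7 among the 500 genes of largest WT SD with a position, by distance between gene starts, over the 9 WT arrays (red) and the 28 other arrays (grey). The red bars fall from 53.6% within 1 Mb to 6.04% on different chromosomes, and the grey bars from 39.3% to 1.05%.

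The genes that varied in WT also varied in the other genotypes, by and large. Across the 11397 genes, which are not independent replicates, the rank correlation of the WT SD with the SD elsewhere was 0.635 in Hdac4HET, 0.614 in R6/2, 0.662 in Dble::R6/2 and 0.732 with these pooled. Of the 133 WT genes over the threshold, 76 (57.1%) were over it in Hdac4HET, 82 (61.7%) in R6/2 and 65 (48.9%) in Dble::R6/2. The median SD was 0.0888, 0.0906 and 0.0818 there, against 0.0964 in WT.

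Whether a gene's spread differed between WT and another genotype was tested with limma on absolute deviations from the genotype mean over all 37 arrays. The 3 comparisons share the WT arrays. Against Hdac4HET, 49 probe sets had a higher spread in WT (0.109%) and 159 a lower one (0.353%), with 4204 at an unadjusted p under 0.05. Against R6/2 these numbers were 6 (0.0133%), 3 (0.00666%) and 3769, and against Dble::R6/2 22 (0.0488%), 5 (0.0111%) and 4141. Every call of a higher WT spread was lost when deviations were taken from the genotype median, which left 37 lower calls against Hdac4HET, none against R6/2 and none against Dble::R6/2, with 2037, 1755 and 2012 at an unadjusted p under 0.05. Without the 6 arrays against their sex label the counts were 97 (13 higher and 84 lower), 7 and 1, and with only the 2 genotypes compared 112 (20 higher and 92 lower), 0 (3217 at an unadjusted p under 0.05) and 12. The count against Dble::R6/2 was 203 without WT replicate 8, of which 71 were higher and 132 lower in WT, so the balance of directions turned, 13 without WT replicate 7, and 5, 7, 12, 14 and 2 without Dble::R6/2 replicates 2, 4, 5, 7 and 9. That against R6/2 was 18 and 16 without WT replicates 1 and 6, and 16, 5 and 4 without R6/2 replicates 3, 7 and 8, and that against Hdac4HET was 132 without Hdac4HET replicate 1.

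Avp, the vasopressin precursor of the hypothalamus, had a higher spread in WT than in each other genotype. Its WT levels were 5.04, 7.04, 5.28, 4.72, 4.92, 5.15, 7.36, 4.99 and 7.64 on replicates 1 to 9, high on replicates 2, 7 and 9 and below the median level of probe sets on the rest. The SD was 1.18, against 0.150 in Hdac4HET, 0.474 in R6/2 and 0.261 in Dble::R6/2, and the difference in mean absolute deviation was 0.98 (limma adjusted p = 1.63e-05), 0.71 (0.0273) and 0.90 (0.00182). With deviations from the median the adjusted p was 0.861, 1 and 0.999. The call against R6/2 was lost without WT replicate 2, 7 or 9 or any 1 of 6 R6/2 arrays, and that against Dble::R6/2 without WT replicate 7 or 9. Pttg1 was called against Hdac4HET (1.51, limma adjusted p = 0.0202) but not with deviations from the median (0.999) or without WT replicate 2, 4 or 5. Sytl1, a Rab27 effector, was called against R6/2 (0.28, limma adjusted p = 0.0206) and Dble::R6/2 (0.30, adjusted p = 0.0157), with a WT SD of 0.421 against 0.142 and 0.110, and not with deviations from the median (adjusted p = 1 and 0.801). It was also called against Hdac4HET (0.23, limma adjusted p = 0.0215), where its SD was 0.203. The call against R6/2 was also lost without WT replicate 1, 6, 8 or 9 or R6/2 replicate 2, 8 or 9.

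By their brightest probe sets, 91 of 18193 genes were called with a lower spread in WT than in Hdac4HET. Among them were 8 of the 11 listed markers of the olfactory bulb, at the front of the forebrain, none of which was called in the other comparisons. S100a5, a calcium-binding protein of olfactory axons, was at 4.25 to 4.79 on the WT arrays, with an SD of 0.164 against 2.15 in Hdac4HET (difference in absolute deviation -1.96, limma adjusted p = 1.53e-08). Sp8, a transcription factor of bulb interneurons, had an SD of 0.151 against 1.38 (-1.18, adjusted p = 5.27e-06), Doc2g 0.172 against 1.33 (-1.13, adjusted p = 3.6e-06) and Cdhr1, a cadherin of mitral cells, 0.173 against 1.55 (-1.23, adjusted p = 5e-04). These 4 calls held with deviations from the median, at adjusted p of 0.0186, 0.0193, 0.000733 and 0.00464. Of these markers 2, Cdhr1 and Nmb, lay above the median level in WT, with a mean level of 6.57 to 6.97 over the WT arrays. S100a5, Sp8 and Doc2g lay below it, at WT means of 4.56, 4.43 and 6.03, and low levels lie near the background of the arrays. Baiap2l1, an actin and membrane binding protein, was at 7.70 to 7.93 in WT (SD 0.0758), against SDs of 2.12 in Hdac4HET and 1.80 in R6/2 (differences -1.95 and -1.59, limma adjusted p = 3.6e-06 and 0.00586), with adjusted p of 0.356 and 1 with deviations from the median, and the call against R6/2 was lost without R6/2 replicate 6, 7 or 8.

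Of the other lists, Calb2 and Gad1 of the interneuron markers, Zic1 of the hippocampus and thalamus markers and Lcn2 of the glucocorticoid-induced genes were called lower in WT than in Hdac4HET, and no listed gene besides Pttg1 was called higher in WT by its brightest probe set. By another probe set H2-D1 was called higher in WT than in Dble::R6/2 (1.26, limma adjusted p = 0.0283, SD 1.66 against 0.374), as was Pttg1 (1.75, adjusted p = 0.0391). Among lists not yet given, the median SD was 0.130 for 10 hippocampus and thalamus genes, 0.182 for 8 interferon-stimulated genes, 0.102 for 16 heat shock and chaperone genes, 0.196 for 6 MHC class I genes and 0.156 for 4 genes that escape X inactivation, and none of 6 blood cell genes lay above the median level.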

How the data were processed

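RNA from the cortex of 37 mice was measured on Affymetrix mouse genome arrays, prepared by the authors from 200 ng of total RNA with a 3' IVT kit, 1 array a mouse. The authors deposited 1 table of log2 values, 1 column an array; RACE was used for quality control and chips of poor quality were left out, and the sources used here do not state the normalization. Values were used as deposited. Groups and replicate numbers came from the labels, and the 9 WT titles gave the members. Members, gene lists and pairs were chosen with earlier results of these data known. Of 45037 probe sets, 34945 had 1 gene symbol and 932 several, which named no gene. Lists were mapped through RefSeq synonyms, with GRCm38.p6 positions.

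SD, correlations and groups (average linkage on 1 - r, at r = 0.7) were computed with Python 3.11.15, numpy 2.4.6, scipy 1.17.1 and pandas 2.3.3. Exact permutation tests ran over all orders of the 9 arrays. Spread (absolute deviations from the genotype mean, scaled for n, robust eBayes) and labelled sex (eBayes with a trend) were tested with R 4.3.3 and limma 3.58.1 over all probe sets, called at a Benjamini-Hochberg adjusted p under 0.05. The scripts were tested on simulated data. Single mice are the units behind every p-value, and the number of arrays limits the precision.

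The text names the 20 largest and 10 smallest WT SDs, up to 2 members of each list by SD, the listed pairs, up to 5 called genes in each direction of a test and 5 leading genes of each group. Other list members are named as examples, after their values were seen. Alternatives were another normalization, other level filters, other measures of spread, labelled sex, a replicate block and leaving out arrays.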

Additional observations from a re-analysis of the deposited data

Results flagged for a closer look

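Each of 166 named genes and 15 groups was examined for a WT array standing far from the other 8, and 11 were found. Chance alone gives about 1 in 20 groups of values, which is close to the share found, so the number of flags is no result in itself. On replicate 8 the lowest value stood apart for Arhgap5 (10.06), Crebbp (9.40), Gjc3 (5.60), Ildr2 (9.94), Resf1 (7.24), Ttr (11.77) and Zc3h13 (8.80), and for the group led by Resf1, whose mean deviation there was -0.67. Of these genes 5 lead that group, and Ttr and Gjc3 belong to it, so they do not count as separate. Doc2g was low on replicate 6, at 5.59. Mag was high on replicate 2, at 10.18, and Mdh2 on replicate 1, at 12.93, where its whole range was a 1.04-fold change.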

How the results depend on the processing

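The median SD of 0.0964 was 0.114 over all genes, 0.0814 above the 75th percentile of level and 0.0874 from the median absolute deviation (0.0927 to 0.0972 without single arrays). Genes over the SD threshold numbered 209 over all genes and 53 above the 75th percentile (120 to 142 without single arrays). The correlation of WT spread with the other genotypes was 0.752 after quantile normalization, 0.676 above the 75th percentile, 0.513 with median absolute deviations, 0.711 after labelled sex and 0.705 to 0.725 without single arrays. Probe sets with another spread than in Hdac4HET, R6/2 and Dble::R6/2 numbered 149, 1 and 3 with squared deviations, 37, 0 and 0 with deviations from the median, 112, 0 and 12 with only the genotypes compared, and 97, 7 and 1 without arrays against their sex label, a setting chosen after seeing the data. With single arrays left out they ranged from 132 to 238, 4 to 18 and 2 to 203. With the replicate number as a block they were 196, 9 and 22, and the numbers are only names. Probe sets by labelled sex ranged from 0 to 18, with 7 without replicate 7, and called pairs from 8 to 10. Groups numbered 8 among 300 genes, 25 among 1000 and 6 at r = 0.8. Among probe sets called against Dble::R6/2, the balance of directions turned without WT replicate 8. No named gene of the spread tests and no called pair turned its direction under these settings. The cause was not tested, beyond fewer genes or arrays entering. The number of arrays limits every SD, and low levels lie near the background of the arrays.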
